A study of Mus musculus with 6 samples.

Results

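Transcripts of 10 genes of the NF-kappaB system were described in cells of the mouse mammary tumour line 4T1. The cells were knockout (KO) or wild type (WT) for the gene of myosin 1e, Myo1e, which encodes an actin-based motor. The 10 genes were taken by symbol from the deposited log2 CPM table, and 10 of 10 were present among its 11452 genes. They comprise 5 Rel-family subunits (Nfkb1, Nfkb2, Rel, Rela and Relb) and 5 inhibitors or coregulators that the pathway itself induces (Nfkbia, Nfkbie, Nfkbiz, Tnfaip3 and Birc3). The labels name no treatment, and each genotype had 3 libraries, each from a cell pool. The sources used here do not say by what method Myo1e was knocked out or what a pool is. Both genotypes share the 4T1 background, and the knockout is compared at the RNA level only. The table numbers its columns 1, 2 and 4 in each genotype, and libraries are named by genotype and column number.

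NF-kappaB is a family of dimeric transcription factors that inhibitor of kappaB proteins hold in the cytoplasm. Receptors for tumour necrosis factor, interleukin-1 and microbial products activate a kinase complex that marks these inhibitors for destruction, and the freed dimers enter the nucleus. Among the genes they switch on are their own inhibitors and some of their own subunits, so the pathway limits itself. In mammary tumour cells NF-kappaB is known for driving chemokine, survival and protease genes.

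Values are log2 CPM, reads scaled to an effective library size, the size that the values imply, with a small prior added. There were 17772003 to 19988206 recovered reads per library. The effective size was above the recovered reads in KO 4 (20840627 against 19560010) and WT 4 (18721108 against 17980487). In the libraries numbered 1 and 2 it was below them, so the scaling itself differed by library number. The 10 genes had 381 to 6786 reads per library. Counting error alone was largest for Birc3, with an SE of up to 0.074 on the log2 scale in a library, and smallest for Nfkb2. The libraries numbered 4 stood apart from the other libraries in both genotypes, and 65.6% of the 11269 genes tested differed between them and those numbered 1 and 2. Every number occurs once in KO and once in WT, so library number is balanced between the genotypes. The sources used here do not say what distinguishes the numbers. Myo1e averaged 6.83 ± 0.03 log2 CPM over 3 KO libraries, against 7.01 ± 0.09 over 3 WT libraries (SD). Counts over the whole gene cannot check an edit or the protein. Of 8 mammary epithelial markers, 7 were measured, among them Krt8, Krt18, Epcam and Cdh1, and Krt5 was not measured here. Of the markers of other cell types, 0 of 7 lymphocyte and pan-leukocyte genes, 0 of 4 neutrophil genes and 0 of 4 endothelial genes were measured. Of 7 macrophage and monocyte markers 2 were measured, Cd68 and Cd14, and of 6 fibroblast markers 1, Pdgfra. The replicates are called biological in the series' design text, and their independence is not described further, so p-values measure the spread between these samples.

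The subunits were described first. Nfkb1 (GRCm38 chromosome 3, 135584655 to 135691547, minus strand) encodes a precursor that is processed to a DNA-binding subunit of the canonical pathway. For Nfkb1, KO libraries 1, 2 and 4 had 7.62, 7.64 and 7.72 log2 CPM, against 7.66, 7.67 and 7.68 for WT libraries 1, 2 and 4. All 6 libraries lay within a narrow span, and the genotypes overlapped. In bulk samples such as these, fewer expressing cells and less RNA per cell cannot be told apart. The annotation also has Gm43430 within Nfkb1 on the same strand, so reads could be shared.

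Nfkb2 (chromosome 19, 46304320 to 46312385, plus strand) encodes the precursor processed in the noncanonical pathway. For Nfkb2, KO libraries 1, 2 and 4 had 8.28, 8.26 and 8.35 log2 CPM, against 8.40, 8.28 and 8.38 for WT libraries 1, 2 and 4. WT 1 was the highest library and no group was separate from another. Psd and AC114539.1 lie on the opposite strand over part of this gene, and the sources used here do not state whether counting used strand, so reads of the overlap may be shared.

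Rel (chromosome 11, 23736847 to 23770970, minus strand) encodes a transactivating subunit best known from lymphocytes. For Rel, KO libraries 1, 2 and 4 had 4.70, 4.72 and 4.66 log2 CPM, against 4.71, 4.71 and 4.46 for WT libraries 1, 2 and 4. WT 4 was the lowest, and the other 5 libraries were close to each other.

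Rela (chromosome 19, 5637483 to 5648130, plus strand) encodes the main transactivating subunit of the canonical pathway. For Rela, KO libraries 1, 2 and 4 had 6.90, 6.99 and 7.51 log2 CPM, against 6.97, 7.02 and 7.49 for WT libraries 1, 2 and 4. Both libraries numbered 4 were above all 4 others, whereas KO and WT overlapped.

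Relb (chromosome 7, 19606217 to 19629438, minus strand) encodes the partner of the processed Nfkb2 product. For Relb, KO libraries 1, 2 and 4 had 4.96, 5.10 and 6.07 log2 CPM, against 5.03, 4.99 and 6.14 for WT libraries 1, 2 and 4. In reads this was 605, 591 and 1403 in the KO libraries, and 629, 590 and 1318 in the WT libraries. The gap between number 4 and the others was far wider than any gap between KO and WT of the same number.

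**Figure D1:**
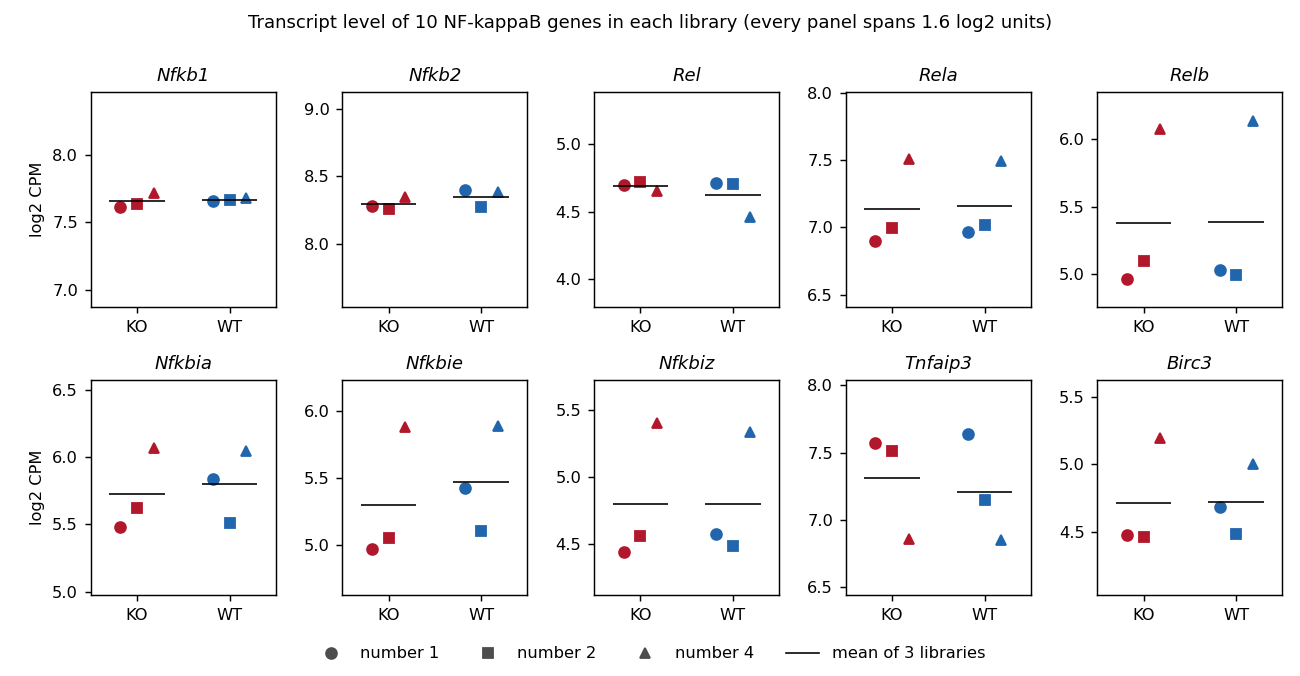
Each panel plots log2 CPM of a gene (vertical axis) in KO (left, red) and WT (right, blue), with a point per library shaped by column number and a line at the mean of 3 libraries. The triangles of number 4 lie high for Rela, Relb, Nfkbia, Nfkbie, Nfkbiz and Birc3 and low for Tnfaip3 in both genotypes, while the KO and WT means lie close together.

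Among the inhibitors, Nfkbia (chromosome 12, 55489410 to 55492647, minus strand) encodes the inhibitor of kappaB that is resynthesised fastest after activation. For Nfkbia, KO libraries 1, 2 and 4 had 5.48, 5.62 and 6.07 log2 CPM, against 5.84, 5.51 and 6.05 for WT libraries 1, 2 and 4. Among the libraries numbered 1 and 2, WT 1 was the highest.

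Nfkbie (chromosome 17, 45555703 to 45563169, plus strand) encodes a further cytoplasmic inhibitor of kappaB. For Nfkbie, KO libraries 1, 2 and 4 had 4.97, 5.05 and 5.88 log2 CPM, against 5.43, 5.11 and 5.89 for WT libraries 1, 2 and 4. As for Nfkbia, WT 1 was above KO 1, KO 2 and WT 2.

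Nfkbiz (chromosome 16, 55811375 to 55838899, minus strand) encodes a nuclear member of the same family that can also act as a coactivator of secondary response genes. For Nfkbiz, KO libraries 1, 2 and 4 had 4.44, 4.56 and 5.40 log2 CPM, against 4.57, 4.49 and 5.34 for WT libraries 1, 2 and 4. The libraries numbered 1 and 2 were close together and those numbered 4 were higher.

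Tnfaip3 (chromosome 10, 19000910 to 19015657, minus strand) encodes A20, a ubiquitin-editing enzyme that shuts off signalling upstream of the kinase complex. For Tnfaip3, KO libraries 1, 2 and 4 had 7.57, 7.52 and 6.86 log2 CPM, against 7.64, 7.15 and 6.85 for WT libraries 1, 2 and 4. Here the libraries numbered 4 were the lowest, and WT 2 lay between them and the other 3 libraries.

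Birc3 (chromosome 9, 7848699 to 7873186, minus strand) encodes a ubiquitin ligase of the tumour necrosis factor receptor complex that restrains cell death and noncanonical signalling. For Birc3, KO libraries 1, 2 and 4 had 4.48, 4.46 and 5.19 log2 CPM, against 4.68, 4.48 and 5.002 for WT libraries 1, 2 and 4. Both libraries numbered 4 were above the rest.

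The promoter sequences of Nfkbia, Nfkbie and Tnfaip3 are shown because they belong to inhibitors of the same pathway whose transcripts moved in opposite directions with library number. Each line gives the 250 bases before the annotated start, 5′ to 3′ on the strand of the gene, from RefSeq on GRCm38.p6, with matches to the kappaB consensus on either strand in capitals. The regions are chr12:55492648-55492897 (minus strand), chr17:45555450-45555699 (plus strand) and chr10:19015411-19015660 (minus strand). The RefSeq start used for Tnfaip3 lies inside the gene span given above, which ends at 19015657. Nearly all of the Tnfaip3 line is thus within that span, whereas the Nfkbia and Nfkbie lines lie before theirs.
Nfkbia: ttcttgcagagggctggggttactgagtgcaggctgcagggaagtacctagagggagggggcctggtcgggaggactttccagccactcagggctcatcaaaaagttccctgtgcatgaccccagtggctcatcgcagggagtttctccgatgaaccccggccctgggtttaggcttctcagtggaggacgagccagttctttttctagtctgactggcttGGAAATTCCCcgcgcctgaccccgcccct
Nfkbie: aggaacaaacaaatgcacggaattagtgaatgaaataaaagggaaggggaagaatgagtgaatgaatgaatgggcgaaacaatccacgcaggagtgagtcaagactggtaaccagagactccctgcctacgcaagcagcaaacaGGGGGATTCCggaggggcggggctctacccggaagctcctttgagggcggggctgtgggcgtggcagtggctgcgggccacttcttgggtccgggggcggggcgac
Tnfaip3: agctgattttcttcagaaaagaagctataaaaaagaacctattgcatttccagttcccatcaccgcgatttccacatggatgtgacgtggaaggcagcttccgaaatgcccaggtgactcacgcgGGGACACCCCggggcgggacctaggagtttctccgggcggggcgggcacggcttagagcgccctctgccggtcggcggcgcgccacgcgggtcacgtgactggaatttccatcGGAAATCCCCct

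The kappaB consensus, a 10-base motif, was searched on both strands in windows of 300 bases, 250 before to 50 after each RefSeq start. The 7 genes with an entry had 10 windows, since a gene with several starts has several. The consensus was found in 7 of these 10 windows, against 4.50% of 32817 windows over all genes. The matching windows belonged to 5 genes, Nfkb2, Rel, Nfkbia, Nfkbie and Tnfaip3, and 3 of them, some overlapping, to Nfkb2. In Nfkbia the match was GGGAATTTCC on the opposite strand, 29 bases before the start. In Nfkbie it was GGGGGATTCC on the gene's strand, 106 bases before the start. Tnfaip3 had GGGACACCCC on the gene's strand, 125 bases before its RefSeq start, and GGGGATTTCC on the opposite strand, 12 bases before it. Both Tnfaip3 matches lie inside the gene span given above, as do the matching windows of Nfkb2. Matches on both strands of a site overlap in Rel and Nfkb2. Rela and Birc3 had an entry and no match in these windows. Nfkb1, Relb and Nfkbiz had no entry. Several of these genes are textbook targets of NF-kappaB, so the matches describe the windows only.

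Next, KO was compared with WT, the question set by the labels. None of the 10 genes passed the threshold in limma's test across all genes, a Benjamini-Hochberg adjusted p of 0.05, with 0 higher and 0 lower (adjusted p = 0.9999 for each). Over all 11269 genes tested, 0 (0%) passed, 23 (0.204%) had an unadjusted p under 0.05, and limma voom on the recovered reads also called 0, with 24 (0.213%) at an unadjusted p under 0.05. With the column number as a replicate block, 1 gene of the table was called, lower (0.00887%). It was Txnip, named after its values were seen. In that fit 9.91% had an unadjusted p under 0.05, and 0 of the 10 genes did. With columns 1 and 2 only, 0 genes passed and 6.78% had an unadjusted p under 0.05. The median difference over the 10 genes was -0.01, beside -0.0071 over all genes tested. The differences ran from -0.17 for Nfkbie to 0.10 for Tnfaip3, and in all 10 genes the KO and WT libraries overlapped. Of all genes tested, 2.04% had every KO library above every WT library and 1.59% had every KO library below.

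Nfkb1 averaged 7.66 ± 0.05 log2 CPM over the KO libraries and 7.67 ± 0.01 over the WT libraries (SD, n = 3 each), a difference of -0.01 with a 95% interval of -0.22 to 0.20. Nfkb2 averaged 8.30 ± 0.05 in KO and 8.35 ± 0.07 in WT, a difference of -0.06 with an interval of -0.28 to 0.17. These were the narrowest intervals among the 10 genes. Relb averaged 5.38 ± 0.61 in KO and 5.39 ± 0.65 in WT, and its interval of -1.04 to 1.03 was the widest, since the libraries numbered 4 enter the spread of both genotypes. Rela averaged 7.13 ± 0.33 in KO and 7.16 ± 0.29 in WT, with an interval of -0.56 to 0.51, and Rel 4.69 ± 0.03 in KO and 4.63 ± 0.14 in WT, with an interval of -0.22 to 0.35. For the inhibitors the intervals were -0.59 to 0.43 for Nfkbia, -0.93 to 0.59 for Nfkbie, -0.83 to 0.83 for Nfkbiz, -0.56 to 0.77 for Tnfaip3 and -0.62 to 0.60 for Birc3. With the column number as a replicate block the intervals were narrower, at -0.12 to 0.10 for Nfkb1, -0.16 to 0.05 for Nfkb2, -0.11 to 0.24 for Rel, -0.13 to 0.08 for Rela, -0.15 to 0.14 for Relb, -0.27 to 0.11 for Nfkbia, -0.37 to 0.03 for Nfkbie, -0.17 to 0.17 for Nfkbiz, -0.07 to 0.28 for Tnfaip3 and -0.21 to 0.19 for Birc3. All 10 included 0 in either fit.

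Within column numbers the differences could be read without that spread. In number 1 the median over the 10 genes was -0.09, beside -0.0005 over all genes tested. The widest gaps between KO 1 and WT 1 were at Nfkbie (-0.45, counting SE 0.08) and Nfkbia (-0.36, counting SE 0.06). In number 2 the median was -0.0028, beside -0.0012 over all genes tested. The widest gap there was Tnfaip3, higher by 0.37 in KO 2 than in WT 2 (counting SE 0.04). In number 4 the median was 0.02, beside -0.013 over all genes tested. Rel (0.20) and Birc3 (0.19) had the widest gaps there, with counting SEs of 0.10 and 0.08. Each gap is between single libraries, and counting SEs leave out the spread between libraries. For Tnfaip3, WT 1 and WT 2 alone differed by 0.49. None of the 10 genes was higher in KO in 3 of 3 numbers, against 15.6% of all genes tested, and 2 genes, Nfkb2 and Nfkbie, were lower in 3 of 3, against 17%. Nfkbie differed by -0.45, -0.05 and -0.0052 in numbers 1, 2 and 4, so nearly all of its mean difference came from number 1.

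**Figure D2:**
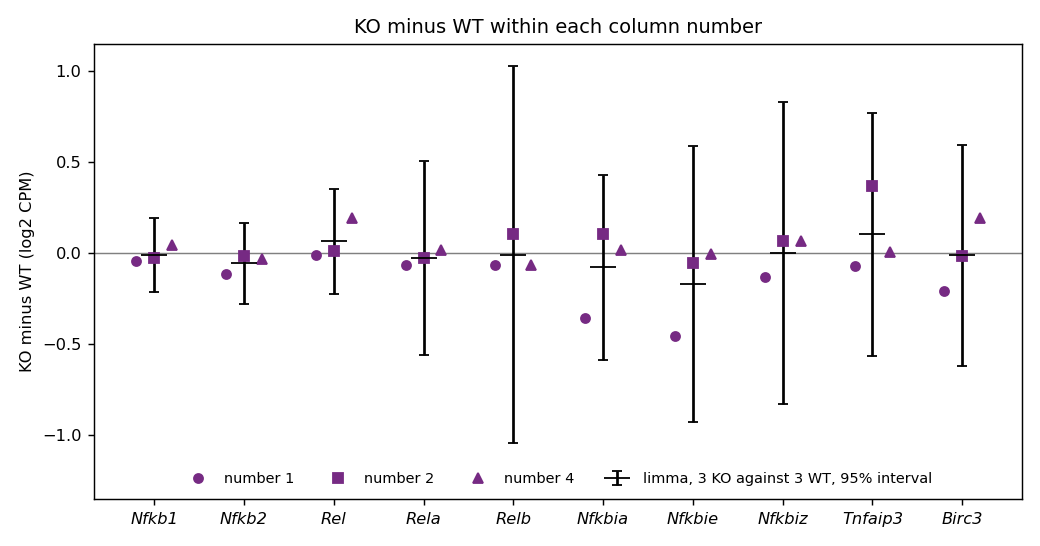
The vertical axis is KO minus WT in log2 CPM for each gene, with a purple point per column number and a black bar for the limma difference of 3 KO against 3 WT libraries with its 95% interval. All 10 intervals include 0, and the points farthest from 0 are Nfkbie and Nfkbia in number 1 and Tnfaip3 in number 2.

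Libraries numbered 1 and 2 of a single genotype, the same libraries that form these gaps, were set side by side as well. KO 1 differed from KO 2 by 0.05 for Tnfaip3, -0.14 for Nfkbia and -0.08 for Nfkbie. WT 1 exceeded WT 2 by 0.49 for Tnfaip3, 0.32 for Nfkbia and 0.32 for Nfkbie, so these genes were farther apart within WT than within KO. The same held for reads over all genes tested. Their chi-square per degree of freedom was 12.2 between WT 1 and WT 2 and 4.93 between KO 1 and KO 2. The median of number 1 minus number 2 was -0.05 over the 10 genes within KO and 0.10 within WT, beside -0.0012 and 0.0011 over all genes tested. NF-kappaB target genes, from a list of cytokines, adhesion molecules and survival genes, had medians of 0.22 within KO and 0.43 within WT over 27 measured genes. Their median KO minus WT difference was -0.29 in number 1, -0.01 in number 2 and -0.01 in number 4.

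The libraries numbered 4 were then compared with those numbered 1 and 2, with genotype as a term in the limma fit. The number 4 was singled out because these libraries were known to stand apart, so the comparison describes libraries and no condition. Of the 10 genes, 6 rose (31.8% of all genes tested rose), 1 fell (33.8% fell) and 3 did not pass. The share called, 7 of 10, was near the 65.6% called among all genes (68.8% had an unadjusted p under 0.05). The median difference over the 10 genes was 0.49, beside 0.0031 over all genes. In the values alone, 7 genes had both libraries numbered 4 above the other 4 libraries (35.8% of all genes) and 2 had both below (37%).

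Relb rose the most, with 6.07 and 6.14 log2 CPM in KO 4 and WT 4 and 4.96 to 5.10 in the libraries numbered 1 and 2. This was a difference of 1.09 (SE 0.07, limma adjusted p = 1.7e-06), or 2.12-fold. Rela rose by 0.53 (SE 0.05, limma adjusted p = 2.8e-05), or 1.45-fold. The other subunits did not pass: Nfkb1 differed by 0.05 (95% interval -0.06 to 0.17), Nfkb2 by 0.06 (-0.06 to 0.18) and Rel by -0.15 (-0.33 to 0.03). With quantile normalization Nfkb1 and Nfkb2 passed, at 0.18 and 0.23 (limma adjusted p = 0.011 and 0.0045), within adjusted p ranges of 0.011 to 0.88 and 0.0045 to 0.66 over all alternatives.

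Of the inhibitors, Nfkbiz rose by 0.85 (SE 0.08, limma adjusted p = 1.4e-05), with 5.34 to 5.40 log2 CPM in number 4 and 4.44 to 4.57 in numbers 1 and 2. Nfkbie rose by 0.75 (SE 0.10, limma adjusted p = 0.00015) and Birc3 by 0.57 (SE 0.10, limma adjusted p = 0.00066). Nfkbia rose by 0.45 (SE 0.09, limma adjusted p = 0.0025), and without KO 4 it was at 0.37 and the call ended (limma adjusted p = 0.055). Tnfaip3 alone fell, by 0.61 (SE 0.11, limma adjusted p = 0.0012), to 6.85 to 6.86 log2 CPM in number 4, against 7.15 to 7.64 in numbers 1 and 2. That is 0.654 times the level of the libraries numbered 1 and 2.

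The direction was the same within KO and within WT in the 10 genes, though Nfkb1 within WT was close to 0 (0.01). Genes with both libraries numbered 4 above the other 4 libraries (35.8% of all genes) or below (37%) share a direction by construction. Agreement between the genotypes is thus common in the table. Relb was higher by 1.04 within KO and 1.13 within WT, and Tnfaip3 differed by -0.68 within KO and -0.54 within WT. Birc3 and Nfkbie had the largest gaps between genotypes, 0.72 and 0.87 within KO and 0.42 and 0.62 within WT. A test of whether the KO minus WT difference depended on number called 0 of the 10 genes and 0% of all genes in limma's test (3.9% at an unadjusted p under 0.05). The spread of a gene in this test comes from the libraries numbered 1 and 2 only. Without WT 1 or WT 2 it comes from KO 1 and KO 2 alone. Calls over all genes changed in those fits and none among the 10 genes did, and only differences are given for them. The differences of differences ran from -0.14 for Tnfaip3 to 0.30 for Birc3 (95% interval -0.10 to 0.71). Tnfaip3 was at -0.39 without WT 1 and at 0.10 without WT 2. It was at -0.12 without KO 1 and at -0.17 without KO 2.

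**Figure D3:**
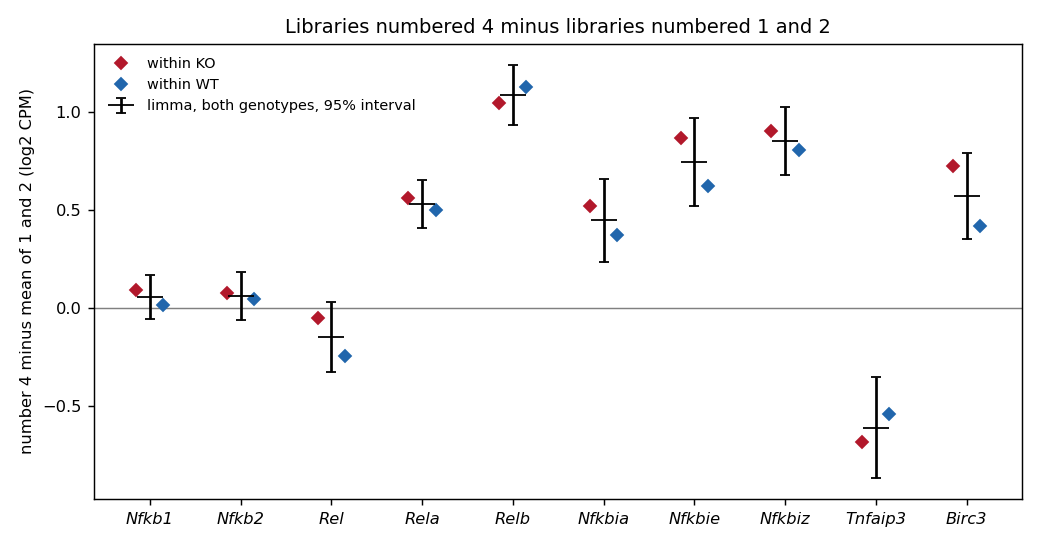
The vertical axis is the level in libraries numbered 4 minus the mean of those numbered 1 and 2 in log2 CPM, with diamonds for KO (red, left) and WT (blue, right) and a black bar for the limma difference with its 95% interval. Relb is the highest at 1.09, Tnfaip3 is the only gene whose interval lies below 0, and the intervals of Nfkb1, Nfkb2 and Rel include 0.

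Levels of different genes were compared only per length, as CPM per kb of annotated exon. Nfkb2 was the most abundant, averaging 69.9 CPM per kb over the 6 libraries (range 66.8 to 73.5), followed by Rela at 46.9 (38.9 to 59.3) and Nfkbia at 34.1 (27.7 to 41.6). Tnfaip3 averaged 21.8 (15.9 to 27.5), Nfkb1 16.8 (16.3 to 17.5), Nfkbie 14.2 (10.3 to 19.4) and Relb 11.5 (8.02 to 18.1). Nfkbiz at 5.78 (4.32 to 8.42), Birc3 at 5.35 (4.40 to 7.30) and Rel at 3.38 (2.94 to 3.51) were the lowest. The order depends on the length used. Per kb of the longest coding transcript Nfkb2 (83.3) and Rela (53.0) were still highest and Rel (3.38) lowest, but Nfkb1 (49.2) and Tnfaip3 (35.6) were above Nfkbia (34.8), Relb (20.2) was above Nfkbie (17.8), and Birc3 (9.21) was above Nfkbiz (7.05). In the order by all exons only Nfkb2 and Rela, Nfkbia and Tnfaip3, and Birc3 and Rel were neighbours whose ranges over the 6 libraries did not overlap. In number 4, Relb (17.3 and 18.1 in KO 4 and WT 4) was above Tnfaip3 (16.0 and 15.9), whereas in numbers 1 and 2 Tnfaip3 was above Relb in all 4 libraries.

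Of the summed per-length level of the 5 subunits, Nfkb2 made up 42.1% in KO 4 and 42.9% in WT 4, against 48.7% to 51.5% in the libraries numbered 1 and 2. Rela made up 35.2% and 34.6% in KO 4 and WT 4, against 28.5% to 30.5%, and Relb 10.3% and 10.7%, against 5.86% to 6.41%. Nfkb1 made up 10.4% and 10.02% in KO 4 and WT 4, against 11.7% to 12.2%. This share depends on the length used: with the longest coding transcript, Nfkb1 made up 20.9% to 21.6% in number 4 and 24.4% to 25.2% in numbers 1 and 2. Shares of 1 library sum to a fixed total, so they do not move independently.

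**Figure D4:**
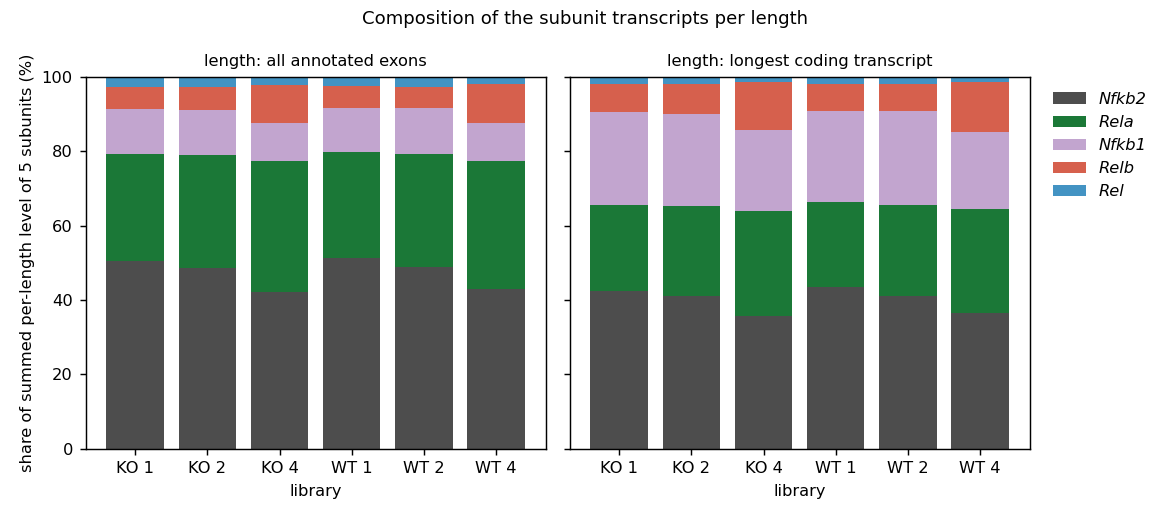
Stacked bars give the share (%) of the summed per-length level of 5 subunits for each library, KO left of WT, with length taken as all annotated exons (left) or the longest coding transcript (right). Rela and Relb take a larger share and Nfkb2 and Nfkb1 a smaller share in KO 4 and WT 4 with either length.

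The rest of the pathway was read from lists of other components. In KO against WT, 0 genes of any list passed in limma's test, and list medians were -0.03 for ligands, -0.03 for receptors, -0.01 for adaptors, -0.02 for kinases, -0.05 for other inhibitors and -0.02 for target genes. By unadjusted p the leading genes in KO against WT included the receptor genes Cd40 (-0.63) and Tlr2 (-0.43), the protease gene Mmp9 (-0.41) and the chemokine gene Cxcl10 (-0.65). Mmp9 in KO libraries 1, 2 and 4 had 7.30, 7.07 and 7.78 log2 CPM, against 7.69, 7.90 and 7.79 for WT libraries 1, 2 and 4. Its limma adjusted p was 0.9999. Others by the same rule were Tlr3 (-0.14), the adaptor genes Tirap (0.17), Sharpin (-0.15) and Traf3 (0.11), the kinase genes Ikbke (-0.08) and Tbk1 (0.04), the kinase adaptor gene Tab3 (0.05), and Tnip1 (-0.16), Nfkbib (-0.09) and Tollip (-0.07) among the inhibitors. Ier3, a survival gene, differed by 0.23.

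For ligands, 2 of 12 were measured. Il18, an interleukin-1 family cytokine, rose by 0.61 in number 4 (SE 0.21, limma adjusted p = 0.028), and Il1a differed by 0.19 and did not pass (list median 0.40). KO minus WT was -0.01 for Il18 and -0.05 for Il1a. Tnf, Il1b and the lymphotoxin genes were not measured here.

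Of the receptors 12 of 14 were measured. In number 4, 7 rose, 1 fell and 4 did not pass, with a list median of 0.42. For this list and those that follow, the shares over all genes tested were 31.8% that rose, 33.8% that fell and 65.6% called, and 8 of 12 receptors called is near the last. Il1r1, the signalling receptor for interleukin-1, rose by 1.57 (SE 0.12, limma adjusted p = 4.2e-06), while Il1rap, its accessory chain, fell by 1.06 (SE 0.10, limma adjusted p = 2.1e-05). Il1r1 was at 4.50 and 4.66 log2 CPM in KO 4 and WT 4, and at 2.97, 2.71, 3.15 and 3.20 in KO 1, KO 2, WT 1 and WT 2. Both chains of this receptor thus differed by library number, in opposite directions. Tnfrsf1b, a tumour necrosis factor receptor, rose by 0.90 and Tlr2 by 0.87.

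Of the adaptors 18 of 18 were measured, and 8 rose, 2 fell and 8 did not pass in number 4 (median 0.08), so 10 of 18 were called against 65.6% of all genes. Traf2 (0.80), Irak2 (0.80), Traf1 (0.78) and Birc2 (0.64) had the largest differences, all of them rises. Traf1 and Birc2 bind Traf2 in the tumour necrosis factor receptor complex, and Irak2 is a kinase-like protein of interleukin-1 signalling. Of the kinases and their adaptors, 11 of 11 were measured, 3 rose, 1 fell and 7 did not pass (median -0.02), so 4 of 11 were called against 65.6% of all genes. Tab1 rose by 0.58 and Tab2 by 0.44, while Map3k7, the kinase they activate, fell by 0.42. Map3k8 differed by -0.49 and did not pass.

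Other inhibitors and coregulators were measured in 16 of 17 cases, of which 8 rose, 2 fell and 6 did not pass (median 0.18), so 10 of 16 were called, near the 65.6% of all genes. Bcl3, a nuclear coregulator related to the inhibitors of kappaB, rose by 1.09 (SE 0.14, limma adjusted p = 0.00011). The ribonuclease gene Zc3h12a rose by 0.96, Nfkbil1 by 0.80, and Nfkbid, a further nuclear inhibitor of kappaB, fell by 0.73.

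Target genes were measured in 27 of 34 cases, and 13 rose, 6 fell and 8 did not pass in number 4 (median 0.54), so 19 of 27 were called, near the 65.6% of all genes. Ccl20, a chemokine gene, was higher by 2.94 (SE 0.33), with 2.89 and 2.90 log2 CPM in KO 4 and WT 4. It was at 0.12, -0.54, 0.64 and -0.41 in KO 1, KO 2, WT 1 and WT 2, close to log2 CPM 0. Ccl20 met the filter of log2 CPM 0 in 3 or more libraries only through the libraries numbered 4. No p-value is given for it for that reason, though it counts among the 13 above. Lcn2, an iron-sequestering secreted protein, rose by 2.77 (SE 0.62), and the complement gene C3 by 1.91 (SE 0.46). Lcn2 was at 5.44 and 5.50 log2 CPM in KO 4 and WT 4, and at 4.00, 1.41, 3.48 and 1.93 in KO 1, KO 2, WT 1 and WT 2, so numbers 1 and 2 also differed from each other in both genotypes. Mmp3, a matrix protease gene, fell by 1.49 (SE 0.21, limma adjusted p = 0.00020). Markers of cell types were also read, beside the 31.8% that rose, 33.8% that fell and 65.6% called among all genes tested. Most genes of the table were called, so calls among these few markers are not particular to them. The 7 epithelial markers summed to 2553 to 2831 CPM in number 4 and 3232 to 3848 CPM in numbers 1 and 2, and 2 rose, 4 fell and 1 did not pass. Cd68 and Cd14 summed to 10.9 to 11.2 CPM in number 4 and 12.9 to 16.8 CPM in numbers 1 and 2, with 1 that fell and 1 that did not pass, and the other 5 macrophage markers were not measured here. Pdgfra rose, with 11.3 to 12.2 CPM in number 4 and 7.88 to 11.2 CPM in numbers 1 and 2. Mitochondrially encoded genes held 0.343% and 0.309% of reads in KO 4 and WT 4, against 0.379% to 0.493% in numbers 1 and 2. The part of cell makeup and of RNA quality in these differences was not tested.

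**Figure D5:**
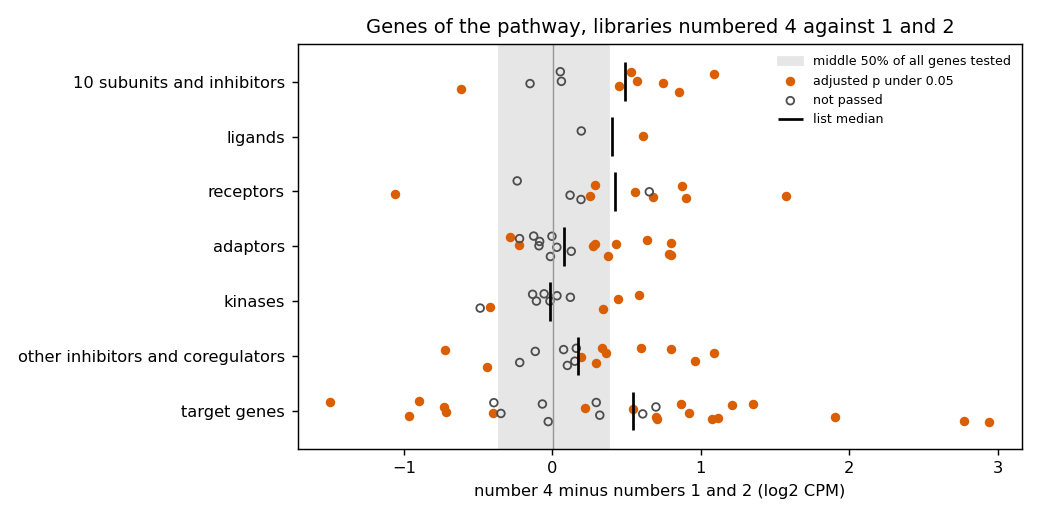
Each point is a measured gene of a pathway list, placed by its difference between number 4 and numbers 1 and 2 in log2 CPM, filled where the limma adjusted p is under 0.05, with a black line at the list median and a grey band over the middle 50% of all genes tested. The medians of the target genes (0.54), the 10 subunits and inhibitors (0.49), receptors (0.42) and ligands (0.40, 2 genes) lie to the right. That of other inhibitors and coregulators (0.18) lies between, and those of adaptors (0.08) and kinases (-0.02) lie near 0.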

How the data were processed

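RNA sequencing of 4T1 cell pools gave 6 libraries, 3 per genotype. The submitters' processing notes name STAR 2.7.3a, Trimmomatic 0.39, edgeR, and Subread 1.6.4 with featureCounts, and the build GRCm38. The authors deposited log2 CPM values. The sources used here do not give the strand setting, the annotation release or the normalization. Minus its lowest value, each library's linear values were whole multiples of a single step (within 0.01), which gave reads. The lowest value corresponds to a prior of about 1 read.

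Columns 1 and 2 were matched to pools of that number, and columns 4 to their genotype only. The labels' design text calls the samples biological replicates. The 11269 genes that reached log2 CPM 0 in 3 or more libraries were fitted with limma 3.58.1 in R 4.3.3 (trended variance, two-sided, Benjamini-Hochberg threshold 0.05). The scripts were tested on simulated data. The simulation of KO against WT held no shift of number 4, so it does not show what that test could detect here. With 3 libraries a side, the smallest two-sided p of an exact permutation test is 0.1. For 2 libraries against 4, as in the comparison of number 4, it is 0.067.

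Deviations from genotype means correlated at 0.744, 0.784 and 0.921 between same-numbered KO and WT libraries, so numbers 1, 2 and 4 were taken to pair the samples. The pairing comes from these values and not from a label. KO 1 with WT 2 also correlated at 0.687 and KO 2 with WT 1 at 0.617. Number 4 stood apart and enters each genotype mean, so any correlation among numbers 1 and 2 was high by construction. These correlations therefore decide little about how numbers 1 and 2 pair. Chi-square per degree of freedom was 4.93 between KO 1 and KO 2 and 12.2 between WT 1 and WT 2. It was 121.9 or more between number 4 and the others of its genotype.

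The members and lists were chosen with earlier results of these data known. Named genes were the 10 members, Myo1e, and from each list up to 3 genes with the smallest p in KO against WT and up to 4 with the largest difference in number 4. Gene positions and lengths came from GENCODE M21 on GRCm38.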

Additional observations from a re-analysis of the deposited data

How the results depend on the processing

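No gene of the 10 passed in KO against WT under any alternative run: no filter, a minimum of log2 CPM 1, 1 CPM added, median centring, quantile normalization, limma voom on recovered reads, the replicate block, columns 1 and 2 only, and each library left out. With the replicate block 1 gene of the whole table was called, lower, against 0, and no call among the 10 changed. Small differences changed sign: Relb was 0.0034 and Birc3 0.0064 with quantile normalization, Relb was 9.1e-05 with voom, and Rel was -0.00049, Relb 0.022 and Nfkbiz -0.031 in columns 1 and 2 only. Leaving out a library leaves the numbers in unequal shares of the genotypes, so differences then moved by construction, from -0.041 to 0.011 for Nfkb1, -0.018 to 0.11 for Rel, -0.21 to 0.14 for Rela, -0.35 to 0.37 for Relb, -0.25 to 0.047 for Nfkbia, -0.46 to 0.038 for Nfkbie, -0.30 to 0.27 for Nfkbiz, -0.077 to 0.33 for Tnfaip3 and -0.25 to 0.13 for Birc3. For number 4 against numbers 1 and 2, every direction among the 10 genes held under all alternatives run, and the calls of Nfkb1, Nfkb2 and Nfkbia changed as described. The test of whether KO minus WT depended on number called 0 genes, and 0 to 264 when a library numbered 1 or 2 was left out (0 to 188 higher, 0 to 76 lower): 264 without WT 2 and 138 without WT 1, none of them among the 10. In those fits the difference ran from -0.029 to 0.093 for Nfkb2, -0.017 to 0.31 for Nfkbia and -0.39 to 0.10 for Tnfaip3. That test cannot be run without a library numbered 4. Leaving out a library in that test was chosen after seeing the data, as was the longest coding transcript as length, which moved the per-length levels as described. A count of 0 reads allows up to 0.144 to 0.173 CPM (3 reads), which covers counting error only.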
